A study of Mus musculus with 10 samples.

Results

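A set of 9 genes encoding endoderm lineage transcription factors, Nkx2-1, Foxa1, Foxa2, Gata6, Cebpa, Etv5, Sox9, Foxp2 and Hnf4a, were followed in normal mouse lung and in lung squamous cell carcinoma. The genes were chosen by name, and 9 of the 19096 genes with a named probe on the array were members, read by 18 probes. The comparison asked whether the transcription factors that mark lung identity are kept in the tumours. RNA had been taken from 5 whole lungs labelled WT and from 5 whole lung tumours labelled SCC, and each sample was hybridised to its own single-colour Agilent whole mouse genome array. All 10 mice were 13 months old, of the B6.129 strain, and received no treatment. The WT group had the genotype Lkb1f/f and the SCC group the genotype CCSPiCreLkb1f/f, so floxed alleles of Lkb1, the gene of the tumour suppressor kinase STK11, were present in both groups and Cre only in the SCC group. The CCSP promoter, which is that of Scgb1a1, drives Cre in cells of the airway epithelium, whereas both kinds of sample also held cells of every other type in the tissue. In such bulk samples, fewer cells of a type and less RNA per cell cannot be told apart. Lkb1 itself was not analysed here, so its deletion was not checked. Nothing in the labels says whether animals were pooled, and the p-values measure the spread between these samples.

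NKX2-1, FOXA1, FOXA2 and GATA6 are the factors that specify the lung field of the foregut endoderm, and in the adult lung NKX2-1 with the FOXA factors drives genes of surfactant and secretory proteins. CEBPA and ETV5 act in alveolar type II cells, the latter downstream of fibroblast growth factor (FGF) signals. SOX9 marks the distal tips of the branching lung, FOXP2 represses airway genes in the distal epithelium, and HNF4A governs gut and liver epithelium and is low in normal lung.

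Differences are SCC minus WT in log2 units of the quantile-normalized signal, with the standard error (SE) or 95% confidence interval and the adjusted p of limma. A gene was called when the adjusted p was below 0.05 and the groups differed at least 2-fold, and exact p-values come from permuting the group labels in every way (exact two-sided permutation test), in which 0.00794 is the smallest possible. A gene with several probes is represented by its brightest. Between 71.0% and 74.3% of probes were well above background on 9 arrays, and 90.2% on SCC replicate 5. SCC replicate 2 had the lowest mean over 10 squamous markers among the SCC arrays, 10.25 against 13.80 to 14.14, but this still exceeded the WT range of 4.18 to 4.75, and SCC replicates 2 and 5 had the highest signals of several gut genes. The 9 pan-epithelial genes measured had a mean of 10.77 to 11.04 in WT lung and 12.40 to 12.55 in SCC, a difference of 1.55 (exact p = 0.00794, n = 5 per group). Of 8 endothelial markers 7 were called lower, with a list mean of 12.72 to 12.86 in WT and 10.25 to 11.40 in SCC. Of 11 macrophage and neutrophil markers 5 were called higher, with list means of 11.59 to 12.21 and 11.58 to 13.37. Without SCC replicate 5 the count was 3, and without SCC replicate 2 it was 7. By adjusted p alone 6 of these 11 were higher and 2 lower, against 22.4% and 26.6% of all tested probes. The adipocyte list mean was 7.63 to 9.72 in WT and 6.77 to 7.58 in SCC (5 of 7 called lower, 3 with 75th percentile scaling, and 1 higher), and that of smooth muscle and fibroblast markers 12.81 to 13.13 and 11.90 to 12.60 (6 of 12 called lower). Over all tested probes 9.92% were called higher and 13.0% lower. The part of these other cells in the results on the members was not tested.

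Of the 9 lineage factors, 2 were called higher in SCC (Sox9 and Foxa1), 2 were called lower (Gata6 and Etv5), and 5 were not called. Over all 30374 tested probes, 22.9% were called, 9.92% higher and 13.0% lower. By adjusted p alone, without the fold requirement, Foxa2 joined them as the only other member, against 49.0% of all probes. The median difference was -0.21 over the members and -0.09 over all tested probes. All members except Hnf4a, 8 of 9, were well above background on all 10 arrays.

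**Figure D1:**
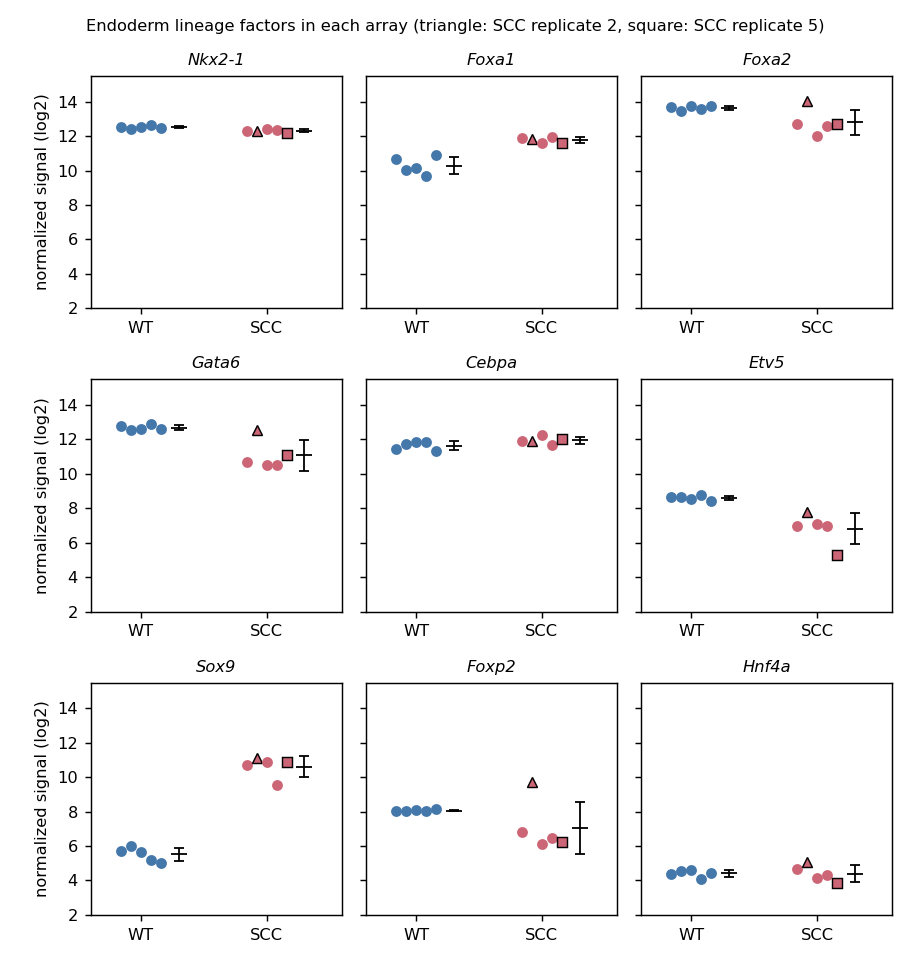
Normalized log2 signal (vertical axis) of the brightest probe of each lineage factor on the 5 WT arrays (blue) and the 5 SCC arrays (red), each array 1 point in replicate order, with the mean and SD at the right of each group. Nkx2-1 stayed between 12.17 and 12.62 on all arrays, Sox9 lay at 5.03 to 5.98 in WT and 9.53 to 11.10 in SCC, and the triangle of SCC replicate 2 stood above the other SCC arrays for Foxa2, Gata6 and Foxp2.

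Nkx2-1, the factor without which no normal lung forms, had nearly the same signal in SCC as in WT lung. Its normalized log2 signal was 12.56, 12.42, 12.55, 12.62 and 12.47 in WT replicates 1 to 5 and 12.32, 12.29, 12.44, 12.38 and 12.17 in SCC replicates 1 to 5. On 4 SCC arrays it lay below every WT array, and SCC replicate 3 lay just above the lowest WT array. The difference was -0.21 (95% confidence interval -0.39 to -0.02), which did not pass the adjustment (limma adjusted p = 0.0635; exact p = 0.0159, n = 5 per group). The adjusted p was below 0.05 with normexp background correction, which models signal over local background and adds an offset of 50 (limma, 0.0384), with the mean over probes (limma, 0.0456) and by the methods' t-test (0.0181), at differences far under 2-fold, and 0.0525 to 0.663 in the other alternatives. The interval lay far inside a 2-fold change. Such a small difference was not particular to Nkx2-1, since 22.7% of tested probes differed by no more than this.

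The FOXA factors, which open chromatin at endodermal genes, moved apart. Foxa1 was higher in SCC, with signals of 10.68, 10.03, 10.14, 9.71 and 10.89 in the WT lungs and 11.87, 11.85, 11.60, 11.93 and 11.58 in the tumours. The groups did not overlap, as was the case for 37.4% of all tested probes, and the spread was larger in WT. The difference of 1.48 (SE 0.22), or 2.78-fold, was called (limma adjusted p = 0.00043). Foxa2 had signals of 13.71, 13.48, 13.72, 13.59 and 13.75 in WT and 12.68, 14.03, 12.02, 12.56 and 12.71 in SCC. In SCC replicate 2 it exceeded every WT lung while the other 4 tumours lay below all of them. Its difference of -0.85 (SE 0.31) passed the adjusted p (limma, 0.0444) but was under 2-fold, and without SCC replicate 2 it was -1.16 and called (limma adjusted p = 0.000164). The change of Foxa1 exceeded that of Foxa2 by 2.33 log2 units, a value given without a test since the signals above already fix its outcome.

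The 250 bases before the most upstream transcription start of each were read from RefSeq (assembly GRCm38.p6). Capitals mark the FOXA letters TGTTTAC or, on the other strand, GTAAACA. The window of Foxa1 lies at chr12:57546112-57546361 on the minus strand, and that of the most upstream Foxa2 start at chr2:148046970-148047219 on the minus strand.
Foxa1: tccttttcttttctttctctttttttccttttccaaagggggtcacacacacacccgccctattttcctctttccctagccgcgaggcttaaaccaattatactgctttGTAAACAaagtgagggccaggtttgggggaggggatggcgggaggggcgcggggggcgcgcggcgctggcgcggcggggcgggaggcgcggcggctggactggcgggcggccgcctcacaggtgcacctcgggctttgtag
Foxa2: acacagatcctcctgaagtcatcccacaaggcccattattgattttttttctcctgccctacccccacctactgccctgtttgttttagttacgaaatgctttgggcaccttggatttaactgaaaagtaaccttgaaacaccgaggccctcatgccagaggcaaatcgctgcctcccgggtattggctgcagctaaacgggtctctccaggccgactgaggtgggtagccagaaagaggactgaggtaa
The FOXA letters occur once in the Foxa1 window and not in the Foxa2 window shown. That is 1 of 3 Foxa2 windows, and the others were not searched, so the 2 genes cannot be contrasted by these letters. Of the 32851 windows of this length, 3.17% hold them. GC content was 62% in the first and 50.8% in the second. Windows were found for 6 of the 9 members. Among the others searched, the most upstream of 2 Etv5 windows (chr16:22439571-22439820, minus strand) holds the FOXA letters once. Those of Nkx2-1 and Cebpa hold neither these nor the NKX2-1 letters CAAGTG, the GATA letters AGATAA or the ETS letters CGGAAG, searched on both strands. The last 3 occur in 11.6%, 9.99% and 13.6% of windows.

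Gata6, the zinc finger factor of lung endoderm and of gut and heart, was lower in SCC. Its signals were 12.80, 12.53, 12.60, 12.87 and 12.58 in WT and 10.66, 12.57, 10.52, 10.49 and 11.09 in SCC. The other 4 tumours lay more than 1 log2 unit below the lowest lung, and SCC replicate 2 lay within the WT range. The difference of -1.61 (SE 0.36), or 3.05-fold, was called (limma adjusted p = 0.00500), and the exact test gave p = 0.0159 (n = 5 per group). A dimmer probe of Gata6 was also called, at -1.14 (limma adjusted p = 0.0269), with the same tumour in the WT range. The remaining probe exceeded background clearly on 2 SCC arrays and on none of the WT arrays and was not tested. Without SCC replicate 2 the brightest probe differed by -1.98.

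Cebpa, a leucine zipper factor of alveolar maturation that is also active in myeloid cells and fat, was not called by either of its probes. The brightest read 11.42, 11.75, 11.86, 11.83 and 11.35 in WT and 11.93, 11.90, 12.25, 11.70 and 12.01 in SCC, so that 4 tumours lay above all lungs. Its difference was 0.32 (95% confidence interval 0.000299 to 0.63; limma adjusted p = 0.0890). The dimmer probe read 7.72, 7.99, 7.92, 7.80 and 7.63 in WT and 8.59, 8.16, 8.85, 8.66 and 9.21 in SCC, without overlap. It differed by 0.88 (SE 0.18; limma adjusted p = 0.00267), which is under 2-fold. The probes thus had the same direction but not the same size.

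Etv5, an ETS factor induced by FGF signals in distal lung epithelium, was lower in every tumour than in every lung. Its signals were 8.63, 8.64, 8.53, 8.75 and 8.41 in WT and 6.999, 7.76, 7.09, 6.98 and 5.29 in SCC. The difference of -1.77 (SE 0.38), or 3.40-fold, was called (limma adjusted p = 0.00376), as was that of the dimmer probe, -1.39 (limma adjusted p = 0.0450). The lowest value was that of SCC replicate 5, without which the difference of the brightest probe was -1.38 (limma adjusted p = 0.000187). With normexp background correction it was -1.02 and still called.

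The nearest relatives of Etv5, Etv4 and Etv1, moved in opposite directions. Etv4, likewise a target of FGF signals, rose from 5.48, 5.18, 5.18, 5.51 and 5.57 in WT to 7.38, 6.33, 7.20, 7.19 and 7.34 in SCC, without overlap. The rise of 1.70 (SE 0.20) was called (limma adjusted p = 0.00012), but with normexp background correction it was 0.71, under 2-fold, and not called. The change of Etv4 exceeded that of Etv5 by 3.47 log2 units, a value given without a test since neither gene overlapped between the groups. Etv1, described here after its values were seen, read 11.08, 11.13, 11.08, 11.50 and 11.33 in WT and 10.15, 11.29, 9.69, 9.85 and 10.01 in SCC. SCC replicate 2 lay within the WT range and the other tumours below it. The difference of -1.02 (SE 0.27) was called (limma adjusted p = 0.0117), just past 2-fold. The call was lost in 7 of 23 alternative fits, namely with normexp correction, with slide as a block and without WT replicate 4 or 5 or SCC replicate 3, 4 or 5, with a difference of -0.90 without SCC replicate 3.

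Of 15 listed genes of the FGF signal around Etv5, 5 were called lower, 1 (Etv4) was called higher and 9 were not called. Over all tested probes 13.0% were called lower and 9.92% higher. The list median was -0.90, against -0.09 over all tested probes. Fgf10, the mesenchymal ligand of lung branching, read 9.03 to 9.43 in WT and 5.76 to 7.79 in SCC, a difference of -2.41 (SE 0.30). Fgf7, a further ligand of the same receptor, differed by -2.50 (SE 0.33), and Il17rd, a feedback inhibitor, by -2.15 (SE 0.23), although a dimmer probe of Il17rd differed by -0.39 and was not called. With normexp correction Fgf10 and Fgf7 differed by -1.57 and -1.86, both still called. Fgfr2, the epithelial receptor of these ligands, differed by -0.58 (SE 0.11), which passed the adjusted p (limma, 0.00159) but was under 2-fold. Its dimmer probes differed by -0.09 and -0.45 and did not pass (limma adjusted p = 0.658 and 0.101). Pdgfra, a fibroblast gene of the tissue in which Fgf7 and Fgf10 are made, differed by -2.10. Of the 12 smooth muscle and fibroblast markers, 8 were lower and 2 higher by adjusted p alone, against 26.6% and 22.4% of all tested probes. The part of mesenchymal cells in these values was not tested.

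Sox9, the marker of the branching tips, had the largest difference of the 9 members. Its signals were 5.71, 5.98, 5.63, 5.20 and 5.03 in WT and 10.72, 11.10, 10.87, 9.53 and 10.86 in SCC. Every tumour lay more than 3 log2 units above every lung. The difference was 5.11 (SE 0.30), or 34.4-fold (limma adjusted p = 3.25e-06), and ranked 168 from the top among the 30374 tested probes. With normexp correction it was 3.46 and still called. A dimmer probe gave 5.05 (SE 0.30). The dimmest was clearly above background on 4 SCC arrays and on none of the WT arrays. It passed the filter on dim probes through the SCC arrays alone, so its p-value is not given. Its signal was at least 1.84-fold higher in SCC, with measured means of 2.63 and 4.92. Such a bound sets the SCC mean against, for each WT array, the higher of the probe's own signal and the lowest signal that counted as above background.

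Of 14 listed genes that SOX9 governs in cartilage, 9 were tested, none was called higher and 2 were called lower, against 9.92% and 13.0% of all probes. By adjusted p alone 3 were higher, against 22.4% of all probes. Col2a1, the main collagen of cartilage, differed by 0.89 (SE 0.12; limma adjusted p = 0.000217) without overlap. A dimmer probe of Col2a1 differed by 0.59 (SE 0.25; limma adjusted p = 0.0754), with the groups overlapping. Sox5 and Sox6, which act beside SOX9 in cartilage, differed by -1.89 (SE 0.55) and -2.03 (SE 0.48) and were both called lower. With normexp correction Sox5 differed by -0.85 and was not called, and Sox6 differed by -1.12. The list median was 0.38, against -0.09 over all tested probes.

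Foxp2, a forkhead repressor of the distal epithelium, varied most between tumours among the brightest probes of the members. Its signals were 8.03, 8.02, 8.10, 8.04 and 8.13 in WT and 6.80, 9.70, 6.10, 6.46 and 6.22 in SCC. The lungs spanned 0.11 log2 units and the tumours 3.60, with SCC replicate 2 above all lungs and the other 4 below all of them. The difference of -1.01 was not called (95% confidence interval -2.37 to 0.36; limma adjusted p = 0.196), and without SCC replicate 2 it was -1.67 and called (limma adjusted p = 1.05e-05). The dimmer probe differed by -1.33 (limma adjusted p = 0.220) and had the same high tumour at 7.25.

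Hnf4a gave a different account with each probe. The probe with the highest mean read 4.38, 4.55, 4.59, 4.10 and 4.44 in WT and 4.67, 5.07, 4.16, 4.30 and 3.83 in SCC, where it was well above background on 3 arrays. Its difference was -0.01 (95% confidence interval -0.50 to 0.48; limma adjusted p = 0.984), with the groups overlapping. Both further probes exceeded background clearly on 2 SCC arrays each and on none of the WT arrays, and neither was tested. The second read 2.11 to 2.33 in WT and 2.16, 9.59, 2.21, 4.40 and 7.03 in SCC, where replicates 2 and 5 stood far above the rest, and its SCC mean was at least 2.06-fold higher. That bound rests on SCC replicate 2, since without it the SCC mean of 3.95 lay below the WT mean at the bound, 4.04. The last read 1.83 to 2.06 in WT and 1.96, 4.67, 1.94, 2.07 and 8.88 in SCC, again with replicates 2 and 5 at the top but in the other order.

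RefSeq lists Hnf4a with more than 1 start, and the 250 bases before both are shown because its probes disagree, with capitals marking the GATA letters AGATAA or, on the other strand, TTATCT. The upstream window lies at chr2:163506607-163506856 and the downstream window at chr2:163546905-163547154, both on the plus strand of GRCm38.p6.
Hnf4a upstream: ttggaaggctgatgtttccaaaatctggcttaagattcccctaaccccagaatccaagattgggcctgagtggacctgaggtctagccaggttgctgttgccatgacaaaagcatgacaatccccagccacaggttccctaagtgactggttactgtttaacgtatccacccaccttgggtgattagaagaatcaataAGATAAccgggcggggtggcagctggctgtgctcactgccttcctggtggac
Hnf4a downstream: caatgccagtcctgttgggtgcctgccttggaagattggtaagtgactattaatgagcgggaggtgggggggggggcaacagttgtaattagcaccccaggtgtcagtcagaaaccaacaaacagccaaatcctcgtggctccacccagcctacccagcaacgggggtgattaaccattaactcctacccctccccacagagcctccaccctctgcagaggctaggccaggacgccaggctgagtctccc
The GATA letters occur once in the upstream window, as in 9.99% of all windows, and not in the downstream one. Which transcript each array probe reads was not determined.

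The tumours with the highest Hnf4a signals on its other probes also had the highest signals of several gut and liver genes. Tff1, a secreted trefoil peptide of stomach mucosa, read 4.83 to 5.34 in WT and 9.13, 17.89, 8.83, 9.77 and 15.96 in SCC, and Tff2, its relative, read 2.34 to 5.87 and 11.71, 17.79, 10.93, 13.23 and 15.79. Both were called higher, by 7.22 (SE 1.73) and 9.63 (SE 1.27), as was Pigr, the carrier of secreted antibodies, by 2.95 (SE 0.51). With normexp correction Tff1 and Tff2 were still called, at 5.22 and 6.72. Tff2 was well above background on 2 WT arrays, so its difference is set in part against background. Vil1, a protein of the brush border, and Lgals4, a lectin of gut epithelium, were not called, since SCC replicates 2 and 5 lay above all lungs and the other 3 tumours below all of them. Gkn2, a gastrokine of stomach, was well above background in no WT lung and read 3.40, 12.98, 3.91, 8.54 and 10.53 in the tumours. Of 22 listed gut and liver genes with a probe, 8 passed the filter on dim probes and 3 were called higher, against 9.92% of all tested probes. The mean of the 22 was 4.25 to 4.45 in WT and 5.07, 7.83, 4.93, 5.20 and 7.46 in SCC, and 90.2% of all probes were well above background on SCC replicate 5. On SCC replicate 2 that share was 73.8%. The part of detection in these values was not tested.

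**Figure D2:**
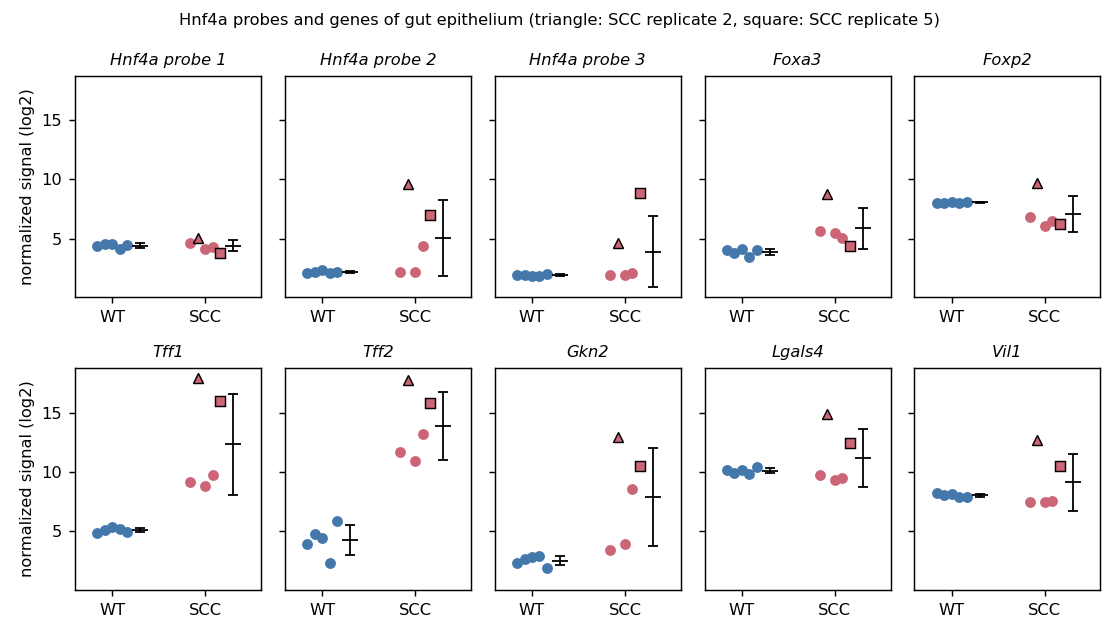
Normalized log2 signal (vertical axis) of the 3 Hnf4a probes, of the factors Foxa3 and Foxp2 and of 5 genes of gut epithelium on the 5 WT arrays (blue) and the 5 SCC arrays (red), with the mean and SD at the right of each group. SCC replicate 2 (triangle) and SCC replicate 5 (square) are the 2 highest points for Hnf4a probes 2 and 3, Tff1, Tff2, Gkn2, Lgals4 and Vil1, whereas SCC replicate 5 is the lowest of the tumours for Foxa3.

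Relatives of the members in the same families moved both ways. Of 16 tested, 4 were called higher and 4 lower, against 9.92% and 13.0% of all tested probes. The list median was -0.27, against -0.09 over all tested probes. With 75th percentile scaling 4 were called higher and 2 lower, and the median was -0.0097. Gata3, the GATA factor of T cells and luminal epithelia, read 10.11 to 10.59 in WT and 7.06 to 8.24 in SCC, a difference of -2.64 (SE 0.23; limma adjusted p = 2.06e-05), or -2.004 with normexp correction. Foxa3, the FOXA factor of liver and gut, was clearly above background on none of the WT arrays, at 3.44 to 4.13, and on all SCC arrays, at 5.61, 8.75, 5.49, 5.07 and 4.37. Its SCC mean was at least 3.41-fold higher, and at least 2.06-fold higher without SCC replicate 2. Foxa3 passed the filter on dim probes through the SCC arrays alone, so its p-value is not given. Gata5 differed by -2.17 (SE 0.75; limma adjusted p = 0.0366), with SCC replicate 2 above all lungs at 8.74 and the other tumours at 3.99 to 5.37. Foxp1, which acts with FOXP2 in lung epithelium, had no value on WT replicate 1, and over the other 9 arrays it differed by -0.88 (SE 0.23), under 2-fold. A dimmer probe of Foxp1 had values on all arrays and differed by -0.13 (limma adjusted p = 0.610). Nkx2-3 was called higher by 1.66 (SE 0.46) and Nkx2-5 called lower, at -1.05 (SE 0.39). The calls of Foxa3, Gata5 and Nkx2-5 were lost in 12 of 22, 14 of 22 and 14 of 23 alternative fits, in each case also where 1 of several WT arrays was left out. With normexp correction Nkx2-3 differed by 0.53 and was not called.

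Among 20 other transcription factors of lung epithelium, 10 were called higher and 2 lower, against 9.92% and 13.0% of all tested probes. The list median was 1.02, against -0.09 over all tested probes. Trp63, the factor of basal and squamous cells, had a median of 5.50 in WT and 13.10 in SCC without overlap, a difference of 7.44 (SE 0.27). Elf3, an epithelial ETS factor, differed by 4.01 (SE 0.22), and Spdef, a factor of mucous cells, by 3.50 (SE 0.56), with its highest value of 11.69 in SCC replicate 2. With normexp correction Trp63 and Spdef differed by 5.48 and 2.38, both still called. Hopx, a marker of alveolar type I cells, differed by -1.31 (SE 0.15), and Nfib, a factor of lung maturation, by -1.31 (SE 0.16).

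Of 17 tested genes of normal lung epithelium, listed as targets of NKX2-1 and its partners, 4 were called lower, 2 higher and 11 were not called. Over all tested probes 13.0% were called lower and 9.92% higher. The list median was -0.74, against -0.09 over all tested probes. By adjusted p alone 10 of the 17 were lower and 3 higher, against 26.6% and 22.4% of all tested probes. Without SCC replicate 2, 7 were called lower. Ager, a receptor of alveolar type I cells, read 14.64 to 14.93 in WT and 12.09 to 13.13 in SCC, a difference of -2.21 (SE 0.17). Aqp5, another alveolar type I gene of the list, went the other way. It had no value on WT replicate 1 and differed by 0.64 (SE 0.19; limma adjusted p = 0.0233), under 2-fold, with 4 tumours above all measured lungs. Cldn18, a tight junction protein of alveoli, differed by -1.54 (SE 0.15), and Scgb1a1, the club cell protein whose promoter drove Cre, by -1.33 (SE 0.34). Sftpc, the surfactant protein of alveolar type II cells, lay at the top of the normalized scale, at 18.80 on each WT array and 18.45 to 18.80 in SCC, where its difference of -0.16 has no room upward. Scgb3a1, a secretoglobin of upper airway, read 9.39 to 11.61 in WT and 16.96 to 17.79 in SCC and was called higher by 6.67 (SE 0.43), as was Muc1, a membrane mucin, by 1.38 (SE 0.15). Each of the 5 SCC arrays read all 17 genes clearly above background.

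**Figure D3:**
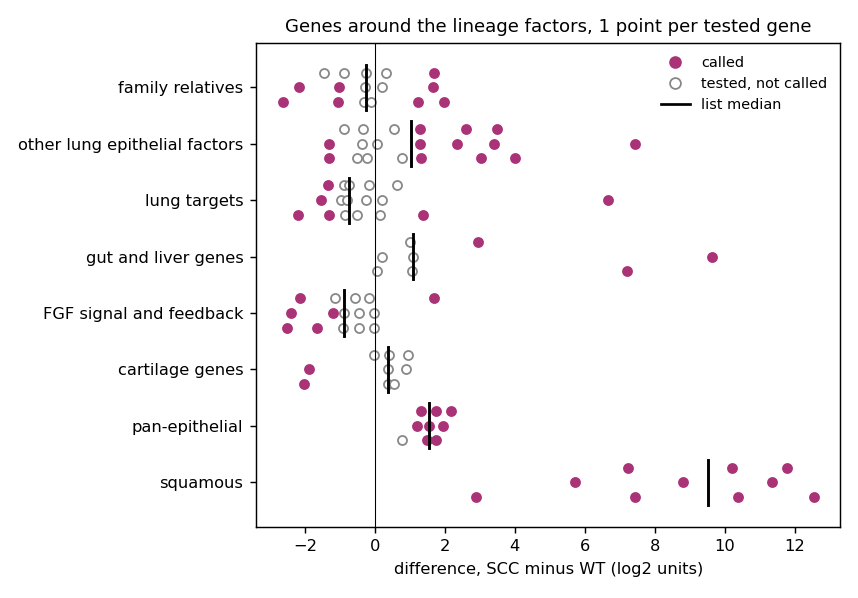
Difference SCC minus WT in log2 units (horizontal axis) of each tested gene of 8 gene lists, 1 point per gene and filled where called, with a black line at the list median. Squamous genes have a median of 9.51 and pan-epithelial genes of 1.53, whereas the lists of lung targets and of FGF signalling have medians of -0.74 and -0.90.

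Because the pan-epithelial genes were higher in SCC, the fit was repeated after their mean had been subtracted on each array. On this scale 81.7% of all tested probes were called, 79.4% lower and 2.37% higher. Of the 9 members, 7 were called lower, which is near the share of all probes and shows nothing particular to them. Nkx2-1 differed by -1.75 (SE 0.11), Gata6 by -3.16 (SE 0.37) and Etv5 by -3.31 (SE 0.38). Foxa1 was the exception on the lower side, with a difference of -0.07 (SE 0.19; limma adjusted p = 0.730), so that its rise and that of the epithelial mean differed by less than the SE. Sox9 was called higher on this scale too, by 3.56 (SE 0.32; limma adjusted p = 1.82e-06).

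**Figure D4:**
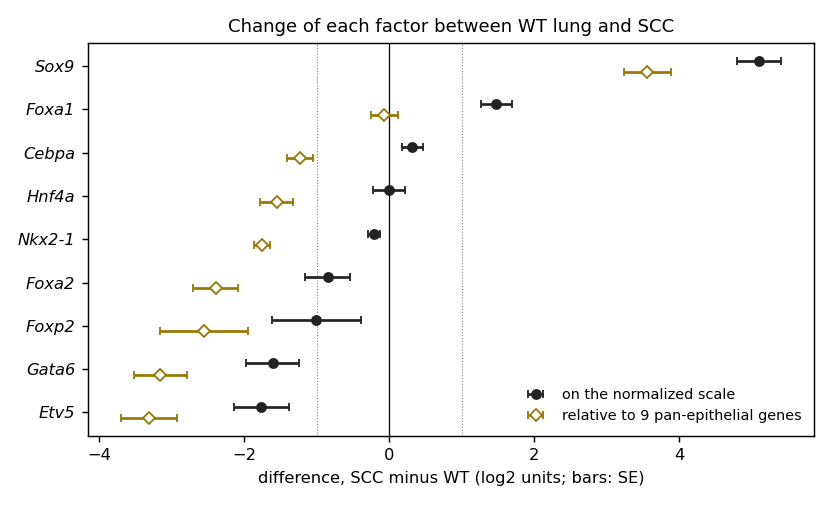
Difference SCC minus WT in log2 units (horizontal axis, bars are SE) of each factor on the normalized scale (black circles) and after subtracting the mean of 9 pan-epithelial genes on each array (open diamonds), with dotted lines at a 2-fold change. Sox9 lies at 5.11 and 3.56, Foxa1 at 1.48 and -0.07, and Nkx2-1 at -0.21 and -1.75.

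The arrays lay on 3 slides, of which only slide 2 held both groups, WT replicate 5 with SCC replicates 1 to 3. With slide as a block, which rests the difference on that slide, Sox9 differed by 5.86 (limma adjusted p = 0.00131) and was the only member called. Foxa1 differed by 0.89 (limma adjusted p = 0.131), Gata6 by -1.33 (0.250) and Etv5 by -1.13 (0.225), in the same directions as before. The differences of Nkx2-1, Foxa2, Foxp2 and Cebpa were then -0.12, -0.84, -0.60 and 0.68, none of them called. Of the 43 genes that the naming rule gave from the other lists, 22 remained called with this block. Among those described above, the block ended the calls of Etv4, Fgf7, Pdgfra, Sox5, Sox6, Foxa3, Gata5, Nkx2-3, Nkx2-5, Spdef, Scgb1a1, Tff1, Tff2 and Pigr. All of these kept their direction, with differences of 6.99 for Tff1, 3.39 for Spdef, 3.09 for Pigr, -2.29 for Fgf7, -2.31 for Sox6 and -1.41 for Scgb1a1, and of -1.32 for Gata5. This contrast rests on 1 WT array, and the lost calls do not show that slide made the differences. In the lists, 2 FGF genes and 2 lung genes were then called lower, 2 lung genes higher and no cartilage, gut or liver gene in either direction. Of the family relatives 1 was called lower and none higher. Of the markers of other cells, no macrophage or neutrophil gene was called, and 2 adipocyte, 3 smooth muscle and fibroblast and 5 endothelial genes were called lower.

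Genes whose profile over the 10 arrays was most like that of a member were found by the root mean square difference of centred log2 signals, among 14109 genes well above background on all 10 arrays. Celsr1 and Elf5 lay closest to Foxa1, at 0.16 and 0.22 log2 units, and Lurap1l and Svip to Gata6, at 0.18 and 0.20. Fam3b and C4bp were closest to Sox9 but at 0.44 and 0.48, with differences of 4.69 and 4.64. Setbp1 and Rwdd3 lay at 0.10 and 0.11 from Foxa2, and Lamp1 at 0.04 from Nkx2-1. Zfp14 and Zfp879 were closest to Etv5, Sec16b and Etfbkmt to Foxp2, Cd9 and Tmem259 to Cebpa, and Gm38457 and Etfa to Hnf4a.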

How the data were processed

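Total RNA of 5 WT lungs and 5 SCCs was measured on single-colour Agilent 4x44K arrays, 1 per sample, with groups and replicate numbers taken from the sample titles. The authors used Agilent Feature Extraction 12.0.0.7, per the file headers, and deposited for each spot a background-subtracted processed intensity on a linear scale. The authors also deposited a table of log2 values, which matched log2 of the quantile-normalized intensity and served as an alternative. Outlier spots were left out, spots of a probe averaged and the 41174 probes quantile-normalized. Probes well above background on at least 4 of the 5 arrays of a group, 30374 in all, entered the fit of limma 3.58.1 (R 4.3.3; two-sided, no covariates, Benjamini-Hochberg adjustment over all of them) in place of the one-way analysis of variance of the methods. The number of arrays limits the precision. Probes were paired with genes through RefSeq (assembly GRCm38.p6), which named 28223 of the 41174. The files use another build, so no probe coordinates are given. From each list at most 3 called genes with the largest positive and 3 with the largest negative difference fell under the naming rule. Other listed genes (among them Fgfr2, Col2a1, Vil1, Lgals4, Gkn2, Sftpc, Aqp5 and Foxp1) were picked after their values were seen. The members and lists were chosen with earlier results of these data known. Alternatives covered scaling, background correction, filters, slide, replicate number, array weights, test, threshold, probe choice and left-out arrays. For normexp correction the median spot signal was used in place of the mean signal. The code was tested on simulated data. For 1 member, 1 of the most similar profiles is not reported here.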

Additional observations from a re-analysis of the deposited data

Results flagged for a closer look

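Among 116 groups of 5 arrays examined for the members and the genes named by rule, 20 held an array whose gap to its nearest neighbour exceeded 0.71 of the range of the group, where chance gives about 1 in 20 groups. SCC replicate 2 was the array in 13 of them, SCC replicate 4 in 3, and SCC replicate 5 and WT replicates 1, 2 and 5 in 1 each.

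For the members, SCC replicate 2 was high for Foxp2 (9.70 against at most 6.80 in the other tumours, gap 0.805) and for Gata6 (12.57 against 11.09, gap 0.711). SCC replicate 4 was low for Sox9 on both brighter probes (9.53 against 10.72, gap 0.755, and 9.04 against 10.27, gap 0.759), although it still lay above every WT lung. SCC replicate 5 was low on the dimmer Etv5 probe (3.65 against 6.10, gap 0.779), and WT replicate 2 was low on the dimmer Foxp2 probe (5.57 against 5.90, gap 0.795).

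In the other lists, SCC replicate 2 was high for Foxa3 (gap 0.716), Cldn18 (0.807), Fgf7 (0.727) and Tek (0.857), and low for Etv4 (0.819), Pkp1 (0.885), Krt6a (0.89), Krt5 (0.879), Itgam (0.839), Cd68 (0.889) and Cxcr2 (0.805). It therefore had lower squamous keratins, 15.60 for Krt5 against 17.45 to 17.70, and lower myeloid markers, 12.23 for Cd68 against 14.23 to 14.48. SCC replicate 4 was high for Hopx (0.867). Among the WT lungs, replicate 1 was high for Tek (0.852) and replicate 5 low for Kdr (0.741), each by less than 0.2 log2 units.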

How the results depend on the processing

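Each member was refitted under 13 alternatives and with each array left out in turn (Hnf4a had no value under the filter for all 10 arrays), and 187 of 206 values kept their direction and their side of the threshold. The count of called members, 4, became 1 with slide as a fixed block and was 4 to 6 with 1 array left out. It was 6 without SCC replicate 2, when Foxa2 and Foxp2 were called too, and with array quality weights, and 5 by adjusted p alone. Relative to the pan-epithelial genes it was 8 in each fit that left out 1 array, 6 with the slide block (without Cebpa and Foxp2), and 7 with Epcam and Cdh1 as reference, the mean over probes or the filter for all 10 arrays. The probes called, 6954, numbered 3969 with normexp, 2988 with slide as a fixed block, 14878 by adjusted p alone, 3844 with the mean over the probes of each gene (15597 genes tested) and 6385 to 8135 with 1 array left out. Hnf4a, whose difference was near 0, turned to 0.48 with 75th percentile scaling, 0.19 with the slide block and 0.018 with array weights, and ranged from -0.17 to 0.14 with 1 array left out. The cause was not tested. Foxa2 lost its adjusted p below 0.05 in every fit without 1 array except that without SCC replicate 2, at 0.0653 to 0.0937. Scaling to the 75th percentile moved the median of all probes from -0.09 to 0.03 and their split from 3014 higher and 3940 lower to 3504 and 3080, with the same 4 members called. Same-numbered arrays did not deviate together (correlations of -0.10 to 0.01). No pairing by number was seen, though such correlations cannot exclude it. With the replicate block 6571 probes and the same 4 members were called.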
